A study of Rattus norvegicus with 12 samples.

Results

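Broad open domains were stretches of the rat genome that every library listed as accessible and that were long in the typical library. All peaks of the 12 libraries were merged wherever they shared at least 1 bp. In each merged region the number of bases lying in peaks, here called the covered length, was computed for each library. A merged region was kept as a broad domain if it held a peak in all 12 libraries and if the median of its covered length over the 12 libraries was at least 4000 bp. There were 3632 broad domains among 118874 merged regions, which was 3.06% of all regions and 16.8% of the 21640 regions open in all 12 libraries. The remaining 18008 regions open in all libraries are called other constant regions. The domains were thus chosen by their measured covered length, so their widths are a description and were not tested against those of other regions.

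Amygdala tissue came from adult male rats of strain Sprague Dawley/WT. The Control group (n = 6) was injected intraperitoneally with saline, and the Ethanol group (n = 6) with ethanol at 1 g/kg by the same route. Tissue was taken 1 h after the injection in both groups and frozen, and per the study's methods each library is a separate animal. Accessible DNA was measured by ATAC-seq, which marks open chromatin by where the Tn5 transposase can cut, and the values used were the authors' peak positions for each library in the Rnor_6.0 build. The lists hold no read counts, so depth is unknown. The libraries held 50370 to 75847 peaks covering 75.6 to 134.6 Mb, with both maxima in Ethanol 6.

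Most accessible sites in a genome are short gaps between nucleosomes at promoters and enhancers. Longer open stretches are known at CpG-rich promoters of genes used in many cell types, at groups of enhancers beside genes that give a tissue its identity, and in gene-dense chromatin. The amygdala handles fear and anxiety, and it is a brain region in which acute ethanol acts. In bulk tissue, a domain open in more of the cells and a domain open more often in each cell cannot be told apart.

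Gene names were available for part of the domains. The starts of 1308 genes could be placed in Rnor_6.0 from the study's own annotation of peaks, and 231 of these starts, in 183 domains (5.04% of the broad domains), lay inside a broad domain. The placed genes are those near the annotated peaks that were held here, and they are not a random sample of rat genes. The held peaks are the first 1997 of the study's annotation. They include the Hif3a promoter peak that the study reported as its most significant. Whether the order of the annotation follows the difference between Ethanol and Control was not tested. Promoter sequences from RefSeq are shown for 4 of them as examples of genes whose placed start lay in a domain. Each sequence gives the 250 bases before the RefSeq start in the GRCr8 build, read 5′ to 3′ on the strand of the gene, with each CG dinucleotide in capitals. Dusp1 encodes a phosphatase that switches off MAP kinases and is induced by growth factors and glucocorticoids, Ddit4 a stress-induced inhibitor of mTORC1, Vgf a secreted neuropeptide precursor induced by activity, and Gapdh a glycolytic enzyme of all cells. The 250 bases lie at chr10:17184603-17184852 (plus strand) for Dusp1, chr20:28437038-28437287 (minus strand) for Ddit4, chr12:25277021-25277270 (minus strand) for Vgf and chr4:159652468-159652717 (minus strand) for Gapdh, all in GRCr8.
Dusp1: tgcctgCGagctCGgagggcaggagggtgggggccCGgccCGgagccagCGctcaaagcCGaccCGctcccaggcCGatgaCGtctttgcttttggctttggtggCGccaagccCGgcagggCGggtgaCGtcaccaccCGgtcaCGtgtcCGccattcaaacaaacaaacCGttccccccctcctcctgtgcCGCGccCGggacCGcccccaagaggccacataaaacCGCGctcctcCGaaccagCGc
Ddit4: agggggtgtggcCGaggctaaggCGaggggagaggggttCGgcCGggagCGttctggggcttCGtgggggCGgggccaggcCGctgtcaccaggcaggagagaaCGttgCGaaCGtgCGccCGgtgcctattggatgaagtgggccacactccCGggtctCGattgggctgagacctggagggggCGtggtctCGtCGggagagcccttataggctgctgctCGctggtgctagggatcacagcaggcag
Vgf: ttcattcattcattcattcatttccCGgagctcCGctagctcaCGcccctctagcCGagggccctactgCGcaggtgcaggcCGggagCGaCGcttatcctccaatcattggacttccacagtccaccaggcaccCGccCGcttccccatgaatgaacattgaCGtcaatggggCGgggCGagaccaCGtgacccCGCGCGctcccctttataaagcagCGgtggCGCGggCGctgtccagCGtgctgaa
Gapdh: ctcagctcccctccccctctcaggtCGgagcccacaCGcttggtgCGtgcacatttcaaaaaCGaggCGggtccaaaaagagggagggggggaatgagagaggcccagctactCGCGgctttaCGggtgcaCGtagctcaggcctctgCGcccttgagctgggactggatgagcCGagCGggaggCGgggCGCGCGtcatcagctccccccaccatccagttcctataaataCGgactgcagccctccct

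These stretches held 25 CG dinucleotides in Dusp1, 19 in Ddit4, 22 in Vgf and 17 in Gapdh. They are 4 chosen examples, and a comparison of CpG content over the whole set of 231 genes was void, because only 74.0% of them had a RefSeq promoter sequence here, under the 80% needed. The 4 are not shown as typical. Ctrb1, Iqce and Brat1 also started in broad domains, and each had 2 CG dinucleotides in its RefSeq promoter sequence of 300 bases.

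Both Mir9-1 and Mir9-2, genes of the brain-enriched microRNA miR-9 that guides neural differentiation, started in a broad domain. The mature sequences are shown because the 2 genes encode the same microRNA, with the seed (bases 2 to 8) in capitals. Its expression was not measured here.
rno-miR-9a-5p: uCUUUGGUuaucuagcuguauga
rno-miR-9a-3p: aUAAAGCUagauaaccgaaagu

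The domain with the start of Mir9-1 (chr2:187579138-187601114, Rnor_6.0) covered 17449 to 21536 bp in Control libraries (median 20130.5) and 16589 to 21360 bp in Ethanol libraries (median 18557). The domain with the start of Mir9-2 (chr2:11882656-11888842) was much shorter, covering 2151 to 5316 bp in Control (median 4118) and 930 to 5323 bp in Ethanol (median 4217.5). The groups overlapped in both domains, and the Mir9-2 domain varied more between libraries than the Mir9-1 domain.

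The first question was how large the domains were and whether they were single peaks. The median covered length of a broad domain had quartiles of 4873, 6309 and 9567 bp and reached 66928 bp. A covered length of at least 10 kb was reached by 845 domains (23.3%), of at least 20 kb by 192 and of at least 50 kb by 7. Widths ran on without a step across the minimum of 4000 bp: the 3 regions just inside had medians of 4000 bp (chr15:18398208-18406154), 4000.5 bp (chr12:46725883-46733279) and 4003 bp (chr4:157702067-157708043), and the 3 just outside had 3998 bp (chr19:11141299-11145957), 3997.5 bp (chr13:91159208-91164005) and 3997 bp (chr8:38061363-38067029). The minimum is thus a line drawn through a continuous distribution.

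**Figure D1:**
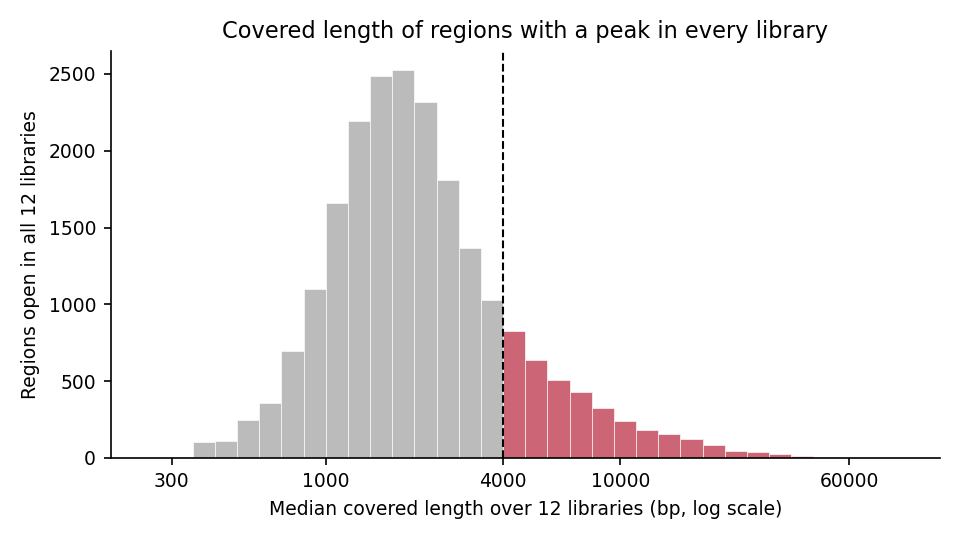
Number of regions open in all 12 libraries by their median covered length (bp, log scale), with the 3632 broad domains in red and the minimum of 4000 bp as a dashed line. The other constant regions are centred near their median of 1688 bp and the broad domains form the upper tail without a second mode.

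The word broad held for only part of the domains as single stretches. In the median library the longest single peak reached 4000 bp in 1727 domains (47.5%), and in the other domains the length was reached by adding separate peaks of a library, which peaks of other libraries bridged. A library split a broad domain into 3.03 ± 0.141 peaks in Control and 3.01 ± 0.299 in Ethanol (mean ± SD over n = 6 libraries of the mean over domains), against 1.16 ± 0.0266 and 1.16 ± 0.0282 for other constant regions, and the domains had more peaks in 12 of 12 libraries. Only 52 domains were 1 peak in all 12 libraries, whereas 1503 (41.4%) were more than 1 peak in every library. Splitting grew with size: the median domain had 2.08 peaks per library between 4000 and 6000 bp, 2.83 between 6000 and 10000 bp, 4.25 between 10000 and 20000 bp and 7.42 above that. Covered length adds up the peaks of a region, so a minimum of 4000 bp favours regions with several peaks. The contrast with other constant regions and the growth with size thus follow largely from the rule and are no separate property. Every library covered at least 4000 bp in 1845 domains (50.8%).

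The most split domain was chr15:43476318-43549811, with a mean of 19.4 peaks per library and a range from 14 to 24. It was followed by chr9:100164868-100240472 with 18.8 and chr10:11112159-11177218 with 15.6. The widest domains that were 1 peak in all 12 libraries were chr14:46591151-46607350, at 16030 to 16134 bp in Control and 16065 to 16111 bp in Ethanol, chr5:91123695-91138108, at 14291 to 14404 and 14277 to 14395 bp, and chr2:49352758-49366549, at 13491 to 13641 and 13479 to 13622 bp. Each of these 3 peaks had nearly the same length in every library.

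The union of the broad domains spanned 44.5 Mb. Of these bases, 32.1% lay in a peak in all 12 libraries and 26.9% in only 1 to 5 libraries. The part open in all 12 libraries had a median of 2821 bp per domain, or 28.9% of the domain, and 132 domains had no base shared by all 12. In other constant regions 32.5% of bases were shared by all 12 libraries and 39.0% by 1 to 5.

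Score rank was then compared. The deposited score has no stated meaning and was read only as a rank among the peaks of its own library, with the 100th percentile the highest. The best peak of a broad domain lay at a median percentile of 85.1 ± 2.11 in Control and 86.1 ± 2.18 in Ethanol (n = 6 libraries each), against 79.2 ± 2.71 and 79.9 ± 3.57 for other constant regions. Broad domains were higher in 12 of 12 libraries, by 4.47 to 7.89 percentile points. A domain has more peaks from which to take its best one. When the score was averaged over the peaks of a region, weighted by length, the medians were 79.6 ± 2.78 and 81.0 ± 3.16 for broad domains against 78.6 ± 2.84 and 80.0 ± 2.99 for other constant regions, with a gap of 0 to 1.37 points. The best peak reached at least the 99th percentile in 4.30% of the domains and stayed below the 50th in 2.29%. Of the top 1% of peaks of a library, 27.5% ± 1.45 in Control and 27.8% ± 1.52 in Ethanol lay in broad domains, which held 18.9% ± 2.20 and 17.8% ± 3.11 of all peaks.

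The domains were spread unevenly over the chromosomes. There were 36.8 broad domains per 10 Mb on chromosome 19, 33.4 on chromosome 12, 30.3 on chromosome 10, 22.8 on chromosome 20 and 19.3 on chromosome 7, with lengths taken up to the end of the last region listed. Chromosome 2 had 5.14 per 10 Mb, the lowest autosomal value, and the X chromosome 0.688. Chromosome 1 held the most domains, 460 of the 3632. The spread was not only that of open regions in general, because the share of constant regions that were broad also differed, from 10.2% on chromosome 2 to 28.5% on chromosome 19. On the X chromosome only 11 of 400 constant regions (2.75%) were broad. All animals were male, and the part of the X copy number in these values was not tested. The low X values are therefore not read as a trait of X chromatin. Chromosome Y had 1 broad domain among 5 constant regions.

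**Figure D2:**
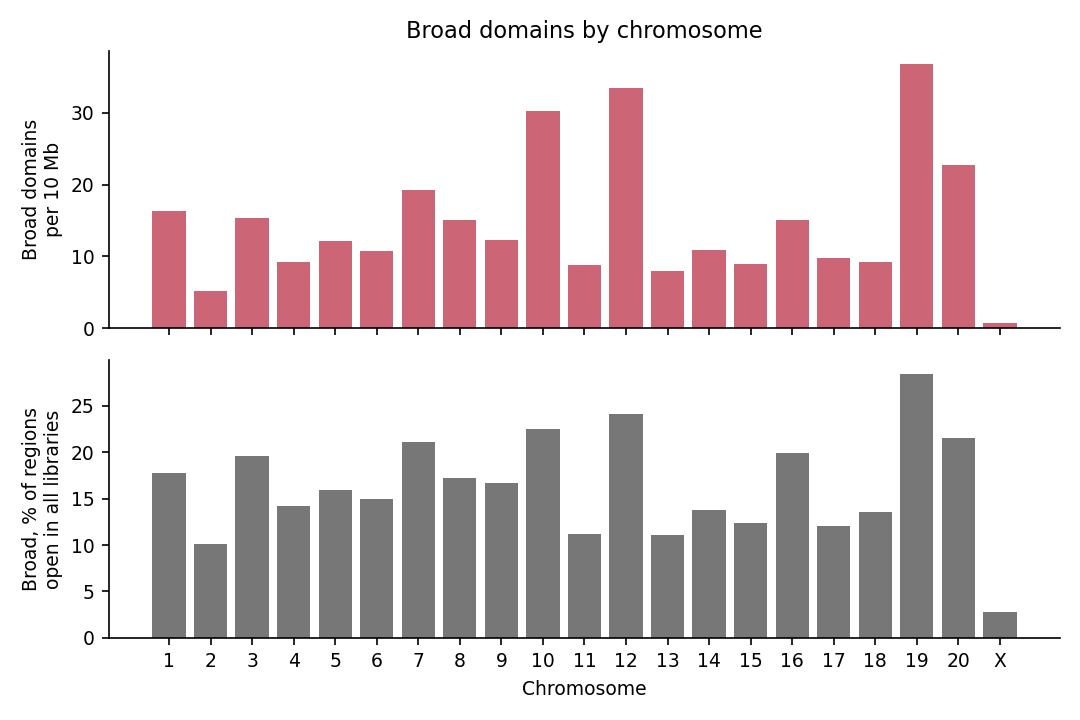
Broad domains per 10 Mb (upper panel) and broad domains as a percentage of the regions open in all 12 libraries (lower panel) for chromosomes 1 to 20 and X. Chromosomes 19, 12 and 10 are highest in both panels and X, from male animals only, is lowest in both.

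Broad domains lay close to each other. Of the 3632 domains, 2752 (75.8%) had another broad domain within 100 kb, whereas 6420 of the 18008 other constant regions (35.7%) had a broad domain within that distance. At 50 kb the shares were 66.7% and 25.7%, and at 500 kb they were 90.4% and 62.5%. The median gap to the nearest broad domain was 15.7 kb for broad domains and 242 kb for other constant regions. When domains within 100 kb of each other were joined, they formed 1527 groups, of which 880 were single domains and 47 held 10 or more. These 47 groups held 658 domains (18.1%).

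The largest groups held 33 domains each. The first, at chr7:10934458-12035925, covered 443 to 634 kb in Control libraries (median 543 kb) and 515 to 645 kb in Ethanol libraries (median 555 kb), and in the median library 50.3% of this span lay in peaks of broad domains. The groups overlapped there, and 14 of the 33 domains had a positive log2 difference (26 without centring and 12 under quantile normalization). The second, at chr16:20290178-21383145, covered 309 to 473 kb in Control (median 390 kb) and 381 to 503 kb in Ethanol (median 415 kb), or 37.1% of its span. The Control and Ethanol ranges overlapped there as well. In this group 26 of the 33 domains had a positive log2 difference (29 without centring and 23 under quantile normalization), where 56.7% of all broad domains did, and 1 of the 33 had an unadjusted limma p under 0.05, against 5.18% of all regions tested.

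The 5 widest domains had log2 differences between -0.034 and 0.062. The widest, chr8:116275488-116351120, covered 61122 to 69815 bp in Control (median 66805) and 62711 to 72632 bp in Ethanol (median 66927.5). The next, chr7:12385444-12461263, covered 62484 to 67985 bp in Control (median 63946) and 59716 to 72068 bp in Ethanol (median 66698). Their groups overlapped, and the same held for chr10:109166228-109231862, with group medians of 54685 bp (Control) and 56589 bp (Ethanol), chr1:221849543-221919431, with 52529.5 and 57033.5 bp, and chr9:100164868-100240472, with 53976 and 53572.5 bp. No placed gene start lay in them, which says only that none of the 1308 placed starts did.

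Among the domains that did hold a placed gene start, the covered length had a median of 6430 bp and reached 27982 bp. The genes named in the next paragraphs were chosen for their known roles after their values had been seen. In each of them the Control and Ethanol ranges overlapped. Starts within one domain share its value, as 41 of the 183 domains held 2 or more placed starts.

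The widest of these domains, chr20:4799494-4829123, lay on chromosome 20 and held the starts of Nfkbil1, Atp6v1g2 and Ddx39b, neighbours in the class III part of the MHC. It covered 24356 to 28387 bp in Control (median 27032.5) and 23790 to 29444 bp in Ethanol (median 28312). The Mef2d domain, at the start of a transcription factor of neuronal survival and synapse number, covered 15093 to 26974 bp in Control (median 24970) and 15824 to 28362 bp in Ethanol (median 22077). The Lfng domain, at a glycosyltransferase that tunes Notch receptors, covered 19673 to 24042 bp and 21900 to 25568 bp. The domain of Sox8, a transcription factor of the glial lineage, and its neighbour Lmf1 covered 16139 to 25422 bp and 17250 to 24726 bp.

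Genes used in nearly all cells were present among the domains. The Gapdh domain (chr4:157668346-157691442) covered 12072 to 20946 bp in Control (median 18391) and 14548 to 21592 bp in Ethanol (median 18649), in 1 to 7 separate peaks. The Actb domain, at cytoplasmic actin, covered 9913 to 12956 bp in Control and 11176 to 12602 bp in Ethanol. The Eno1 domain, at a glycolytic enolase, covered 6412 to 12989 bp and 6165 to 15279 bp. The Actb domain was thus the steadiest of the 3 between libraries.

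Some genes with known roles in neurons also started in broad domains. The domain of Calm3, a calmodulin gene, covered 11684 to 15941 bp in Control and 13135 to 17328 bp in Ethanol. The domain of Kif5a, a kinesin heavy chain of axonal transport, covered 7632 to 10471 bp and 8000 to 12639 bp. The domain of Chrnb2, the beta 2 subunit of the neuronal nicotinic receptor, covered 6676 to 17052 bp and 9181 to 16709 bp. Syt7, a synaptic calcium sensor, lay in a domain of 6181 to 11637 bp in Control and 6199 to 10757 bp in Ethanol. Gria1, the GluA1 subunit of AMPA receptors, started in a small domain of 3149 to 6951 bp in Control and 3412 to 6986 bp in Ethanol, and it was the only one of 21 listed neuronal marker genes whose start could be placed. Among markers of other cells, 1 of 11 oligodendrocyte genes was placed (Mag, in a region not open in all libraries), 1 of 6 endothelial genes was placed (Pecam1, in no region), and none of 9 astrocyte and 9 microglial genes was placed. The labelled tissue could therefore not be checked against its markers from these domains.

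Chromatin regulators also started in broad domains. The domain of Chd4, the remodelling ATPase of the NuRD complex, covered 5898 to 9044 bp in Control and 6575 to 9936 bp in Ethanol. The domain of Ehmt2, which encodes the histone H3 lysine methyltransferase G9a, covered 6234 to 9031 bp and 6984 to 8752 bp. Smarca2, a BAF complex ATPase, lay in a domain that was 1 peak in every library, with 4044 to 4724 bp in Control and 4281 to 5402 bp in Ethanol. Of these domains that of Smarca2 was the only one never split.

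Lists of responsive genes were looked at next. Of 18 immediate early genes, which neurons switch on within minutes of activity, 3 starts were placed and 2 lay in broad domains, those of Egr1 and Dusp1. Of 18 glucocorticoid responsive genes 10 were placed and 2 lay in broad domains, those of Ddit4 and again Dusp1. Another 6 lay in other constant regions, among them Fkbp5, Zbtb16, Nfkbia and Hif3a. Of all 1308 placed starts, 17.7% lay in broad domains and 49.1% in other constant regions. With so few placed starts, and Dusp1 in both lists, these counts are not read as a trait of either list. The Egr1 domain (chr18:27652990-27665132) covered 6638 to 11008 bp in Control (median 10002.5) and 7162 to 11509 bp in Ethanol (median 9713.5). The Dusp1 domain (chr10:16967907-16977306) covered 5185 to 7994 bp in Control (median 6887) and 6907 to 8680 bp in Ethanol (median 7950). The Ddit4 domain (chr20:29507115-29514070) was the steadiest, with 5687 to 6775 bp in Control (median 6229.5) and 6013 to 6782 bp in Ethanol (median 6377.5). None of these 3 reached an unadjusted limma p of 0.05.

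The main comparison asked whether the domains differed between Ethanol and Control animals. The total length of the domains was 29.6 ± 3.97 Mb per Control library and 31.9 ± 3.56 Mb per Ethanol library. They made up 34.0% ± 2.03 and 33.3% ± 3.16 of all covered length, a difference of -0.68 percentage points that was smaller than either SD. The lowest share was 28.2% in Ethanol 6, the library with the most covered length, and the highest was 36.6% in Control 2. Without Ethanol 6 the difference was 0.34 points, so its sign rested on that library, and without Control 6 it was -1.38 points. The difference in peaks per domain, -0.027, likewise became 0.059 without Ethanol 6. The median domain covered 6236 ± 878 bp in Control and 6727 ± 846 bp in Ethanol.

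**Figure D3:**
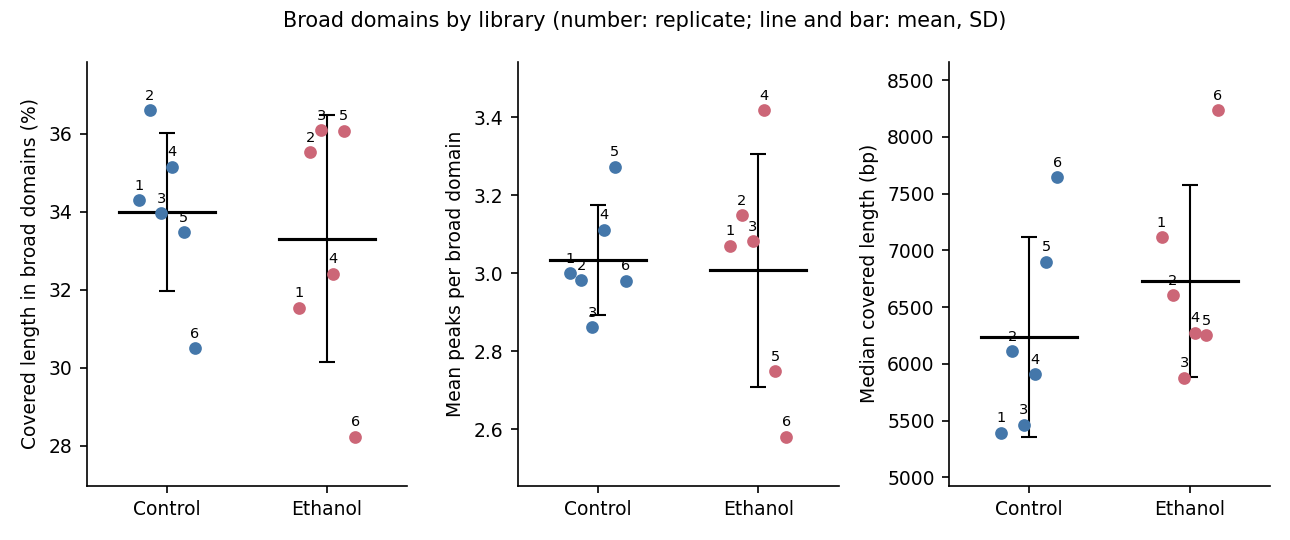
For each library, the percentage of its covered length that lay in broad domains, the mean number of separate peaks per broad domain, and the median covered length of a broad domain (bp), with the mean and SD of each group of 6 and the replicate number beside each point. Ethanol 6 has the lowest share (28.2%), the fewest peaks per domain (2.58) and the widest median domain (8232 bp), and the groups overlap in all 3 panels.

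To compare single domains, log2 covered length was centred on the median of each library and tested with limma over all 21640 regions open in every library. No broad domain passed a Benjamini-Hochberg adjusted p of 0.05 (0% of all regions did), and the smallest adjusted p of a domain was 0.878. With the higher scoring 50% of peaks the smallest adjusted limma p of a domain was 0.0597, and with an equal number of peaks per library it was 0.199. At an unadjusted limma p under 0.05 there were 146 domains (4.02%), against 5.18% of all regions tested. Of these domains 121 (3.33%) were wider in Ethanol, against 2.95% of all regions, and 25 (0.688%) were narrower, against 2.22% of all regions. The median log2 difference was 0.029 over the broad domains and -0.012 over all regions, and it was above 0 in 56.7% of the domains and 47.3% of all regions. The sign of the median and the size of the split depended on the scaling. Under quantile normalization the median of the domains was -0.016, and the calls were 91 wider and 62 narrower (59.5% wider, against 82.9% after median centring). Without centring they were 126 wider and 6 narrower (95.5% wider). In that fit every region, broad or not, is shifted toward wider in Ethanol by the difference of the library medians, 0.062 log2. The shares over all regions under these alternatives are not given here, so the splits are not read as a trait of the broad domains. The split also moved with single libraries. It was 202 wider and 22 narrower without Control 5, 80 and 35 without Control 1, 93 and 38 without Control 3, 94 and 39 without Ethanol 1, and 128 and 16 without Control 2. Without Control 3 the median log2 difference was 0.005. All 6 Ethanol libraries lay above all 6 Control libraries, in centred log2 width, in 2 domains (0.0924% of all regions did so), chr10:56842521-56851439 and the Trit1 domain at chr5:140708526-140715111. All lay below in 2 (0.0693% of all regions did so), chr1:52803031-52809893 and chr10:56363211-56368686. In bp without centring, all Ethanol values lay above in 1 domain, chr10:62641540-62652318 (0.148% of all regions did so), and in no domain did all lie below (0.0185% of all regions did so).

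The 3 domains wider in Ethanol with the smallest p were these. The domain chr3:14999358-15017868 covered 3199 to 7418 bp in Control (median 4498) and 6741 to 11844 bp in Ethanol (median 7989.5), a log2 difference of 0.74 ± 0.15 (SE), with a limma p of 0.00025 and an adjusted p of 0.878. In 4 of 6 Ethanol libraries it was wider than in every Control library. The domain chr10:56842521-56851439 covered 3630 to 6241 bp in Control (median 4299.5) and 5630 to 8533 bp in Ethanol (median 6528), a log2 difference of 0.52 ± 0.11. After centring, 6 of 6 Ethanol libraries lay above every Control library there, and the highest Control value in bp, that of Control 6, overlapped the Ethanol range. The domain chr3:6770727-6781577 covered 2449 to 4898 bp in Control (median 3408.5) and 4018 to 9302 bp in Ethanol (median 6261.5), a log2 difference of 0.78 ± 0.18. None of the 3 held a placed gene start.

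The 3 domains narrower in Ethanol with the smallest p also had an adjusted limma p above the threshold. The domain chr10:66952919-66966577 covered 6030 to 8729 bp in Control (median 7033.5) and 2807 to 9923 bp in Ethanol (median 4431), a log2 difference of -0.68 ± 0.19. In 5 of 6 Ethanol libraries it was narrower than in every Control library, while Ethanol 6 held the highest value of all. The domain chr10:72223689-72232946 lay in the bodies of Znhit3 and Myo19, the latter a mitochondrial myosin gene. It covered 7100 to 8790 bp in Control (median 7890) and 4038 to 8448 bp in Ethanol (median 5056.5), a log2 difference of -0.57 ± 0.17, with 4 of 6 Ethanol libraries below every Control library. The domain chr4:8253183-8260174 held the start of Kmt2e, a chromatin regulator of the histone methyltransferase family. It covered 4593 to 6327 bp in Control (median 5045.5) and 3517 to 5156 bp in Ethanol (median 4252), a log2 difference of -0.35 ± 0.12, with 5 of 6 Ethanol libraries below every Control library.

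**Figure D4:**
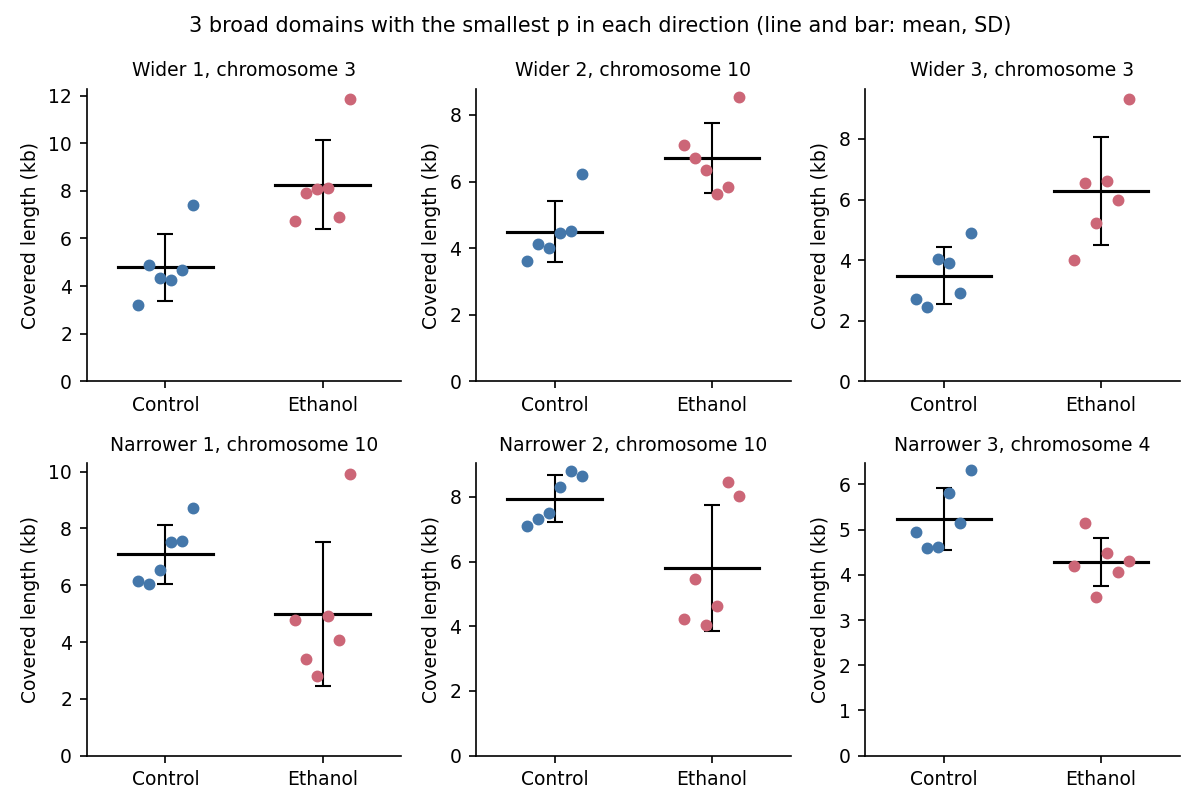
Covered length (kb) in each library of the 3 broad domains wider and the 3 narrower in Ethanol with the smallest limma p, with the mean and SD of each group of 6. The ranges of the groups overlap in each panel, and none of the 6 domains passed the adjusted threshold (adjusted p of at least 0.878).

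Among the 183 domains with placed gene starts, 9 had an unadjusted limma p under 0.05 (4.92%, against 5.18% of all regions), 6 wider and 3 narrower. The wider ones held the starts of Ppp5c, a phosphatase that binds the Hsp90 complex of the glucocorticoid receptor, Glul, the glutamine synthetase of astrocytes, Smtn, a smooth muscle cytoskeletal gene, Ptk2b, a calcium-activated tyrosine kinase, Trit1, a tRNA-modifying enzyme, and Rhob, a small GTPase. The narrower ones held those of Cfap20, Kmt2e and Acot7. The Glul domain covered 2560 to 5824 bp in Control (median 3466) and 3326 to 7972 bp in Ethanol (median 6647), a log2 difference of 0.56 ± 0.22, and it exceeded every Control library in 4 of 6 Ethanol libraries. The Ppp5c domain covered 2149 to 5529 bp in Control (median 3674.5) and 3974 to 10802 bp in Ethanol (median 5666), a log2 difference of 0.64 ± 0.25, and did so in 3 of 6. The Trit1 domain covered 2816 to 4662 bp and 4023 to 6056 bp, a log2 difference of 0.46 ± 0.13. The ranges of the groups overlapped in all 9, and none passed the adjusted threshold. The placed starts came from the held part of the study's annotation, which rests on the same 12 libraries. The 183 domains are therefore not an independent sample, and their share of 4.92% is given with that limit.

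The study's annotation named 21 broad domains among the peaks held here. They lie among the first 1997 peaks of that annotation, which rests on the same 12 libraries, so their widths are not an independent sample. Of the 21 domains, 10 had a positive and 11 a negative log2 difference. At an unadjusted limma p under 0.05, 4 were wider and 3 narrower, against 2.95% and 2.22% of all regions. Given the origin of the list, these counts are not a result about the domains. The lowest log2 difference, -0.60 ± 0.36, was that of the domain in the body of Ggcx, the vitamin K-dependent carboxylase gene. It covered 2916 to 5662 bp in Control (median 5302.5) and 898 to 5445 bp in Ethanol (median 4008.5). Its unadjusted limma p was 0.116, so it was not among the 3 narrower domains. Among those wider in Ethanol, the domain chr1:78998889-79004845, annotated to the promoter of Hif3a, a hypoxia-inducible factor subunit, covered 2892 to 4541 bp in Control (median 3399) and 4459 to 5721 bp in Ethanol (median 5060), a log2 difference of 0.41 ± 0.14. The placed start of Hif3a lay outside this domain, in one of the other constant regions. Ethanol libraries exceeded every Control library in the domain in 5 of 6 cases. The domain chr20:8100231-8107863, upstream of Fkbp5, the co-chaperone that restrains the glucocorticoid receptor, covered 2210 to 5921 bp in Control (median 3413.5) and 4975 to 7263 bp in Ethanol (median 5872.5), a log2 difference of 0.75 ± 0.18. The domain chr8:53066310-53077794 lay in the body of Zbtb16, a zinc finger repressor gene induced by glucocorticoids. It covered 2465 to 6166 bp in Control (median 4574.5) and 4080 to 11361 bp in Ethanol (median 8242.5), a log2 difference of 0.88 ± 0.27, and 5 of 6 Ethanol values exceeded all Control values. The adjusted limma p was 0.938, 0.878 and 0.878 for the 3.

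The annotation put 5 more broad domains at promoters. The domain shared by Sspo, which encodes the subcommissural organ glycoprotein SCO-spondin, and Zfp467 covered 3605 to 6595 bp in Control (median 5088) and 3733 to 4664 bp in Ethanol (median 4003), a log2 difference of -0.35 ± 0.15. The domain at the uncharacterized gene LOC108350833 was one of the widest, with 43820 to 50524 bp in Control (median 46622.5) and 46262 to 53156 bp in Ethanol (median 49653). The groups overlapped in both. The domain of Mrpl51, a mitochondrial ribosomal protein gene, and Ncapd2, a condensin subunit gene, had group medians of 3978 and 4003 bp. The domain of Trib2, a pseudokinase gene, and LOC108351208 had medians of 6529 and 6024 bp, and that of LOC100911672 had 5643 and 4949.5 bp. These 3 also overlapped between groups.

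Domains differed in how constant they were between libraries. The highest covered length was at least 2 times the lowest in 1859 domains (51.2%) and at least 10 times in 50. The most variable domain, chr18:56208700-56224167, covered 453 bp in Ethanol 3 and 6248 to 14693 bp over the Control libraries, with an Ethanol median of 11265 bp. At the other end, 40 domains had a highest covered length no more than 5% above the lowest. This limit was set after the values were seen. They were 4123 to 33941 bp wide, and 18 of them were 1 peak in all 12 libraries. In the median one 96.1% of the bases were shared by all 12 libraries, against 28.7% in the other broad domains. This contrast follows largely from the limit that chose them and is no separate property. Their best peak had a median score percentile of 98.9 (87.7 to 99.99), against 85.6 in the other broad domains, and 19 of them were at or above the 99th percentile.

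**Figure D5:**
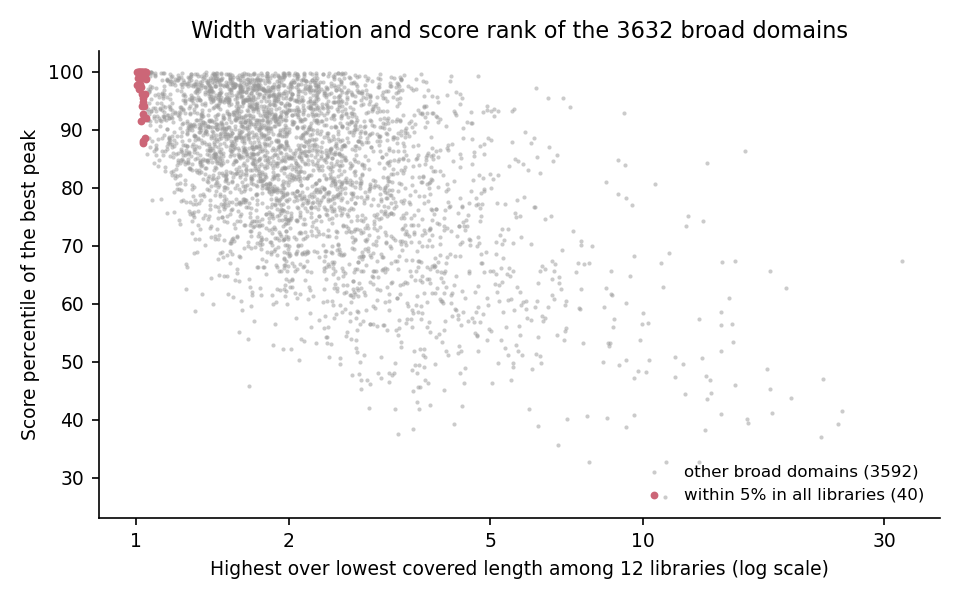
Highest over lowest covered length among the 12 libraries (log scale) and score percentile of the best peak (median over libraries) for each of the 3632 broad domains, with the 40 domains that stayed within 5% in red. The red points all lie above a percentile of 87, while the other domains spread down to 26.8.

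The 40 near-constant domains lay together more often than singly: 24 were in 6 stretches when those within 1 Mb were joined. There were 5 at chr1:55217496-56039493, 5 at chr1:180701566-181173234, 5 at chr14:46521105-46684660 and 4 at chr1:11903403-11973194. None of the 1308 placed gene starts lay in the 40 domains. Only 5.04% of all broad domains held a placed start, so this absence is not read as a trait of the 40. Repeats and mappability were not analysed here, so it is not known whether reads could be assigned uniquely to these 40 domains, and their width, score and position are given with that limit. Their log2 differences ran from -0.083 to -0.042 with a median of -0.062. This is the Ethanol minus Control difference of the library medians (0.062) with its sign turned, so a domain of fixed length necessarily takes that value after centring.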

How the data were processed

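ATAC-seq peak lists of 12 amygdala libraries were analysed. Group and replicate number were taken from each title. The authors deposited 1 list per library, with chromosome, start, end, name and a score (5 columns). Positions are as deposited, in base pairs, and the meaning of the deposited score is not given in the sources used here, so the authors' score served as a rank only. The submitters' processing notes name BWA, MACS2 2.1.1, bedtools 2.27.1, featureCounts 1.5.0, edgeR and Rnor_6.0, without role or order. A longer listed width can come from deeper sequencing, and depth is unknown. The precision of a group mean is that of 6 libraries. No batch or date was given, so no within-batch comparison was made.

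Merging, covered length and counts were computed in Python 3.11.15 with pandas 2.3.3 and numpy 2.4.6. Width was tested with limma 3.58.1 in R 4.3.3 (lmFit, eBayes) on log2 covered bp less the median of each library, Ethanol against Control, over all 21640 regions open in every library, with Benjamini-Hochberg adjustment over all of them. Only the broad domains are reported. The fit was tested on simulated data. Members, gene lists and alternatives were chosen with earlier results of these data known. Named were the 5 widest domains, the 3 just inside and just outside the minimum, the 3 wider and 3 narrower with the smallest p, the 3 most split, the 3 widest single peaks, the 2 largest groups and the domains that the study annotated to promoters (within 2 kb of a start). Other named genes and the near-constant domains were chosen after their values were seen. Gene starts were placed from the gene distances in the study's peak annotation, of which the first 1997 peaks were held, where at least 2 distances agreed within 2 bp. That annotation gave 1308 of 5502 genes a place, and 1198 of them (91.6%) were found in RefSeq. RefSeq sequences are of GRCr8, and their starts need not be those placed in Rnor_6.0. The fold changes and p-values of the study's annotation were not used.

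Alternatives were a minimum of 3000 or 5000 bp, at least 11 libraries, the higher scoring 50% of peaks, an equal number of peaks per library (50370), peaks up to 500 bp apart joined, chromosomes 1 to 20 and X only, no centring, quantile normalization, a pseudocount of 100 bp, the length-weighted score, other distances, a block for the replicate number, and fits without 1 library at a time.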

Additional observations from a re-analysis of the deposited data

Results flagged for a closer look

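Values far from the other 5 of their group, by the ratio of the gap to the nearest value over the range, were looked for in 114 groups of 6, of which chance would mark about 1 in 20. There were 6 such values. Ethanol 6 was the highest of its group in 3 domains: 11844 bp in chr3:14999358-15017868, where the other Ethanol libraries had 6741 to 8102 bp, 9923 bp in chr10:66952919-66966577 (others 2807 to 4906 bp), and 7622 bp in chr15:18398208-18406154 (others 3569 to 4221 bp). Control 6 was the highest of its group at 6241 bp in chr10:56842521-56851439 (others 3630 to 4517 bp) and in the median width of other constant regions, at 1924 bp (others 1547 to 1657 bp). Ethanol 5 had 5680 bp in the domain of Mrpl51 and Ncapd2 at chr4:157702067-157708043 (others 3727 to 4127 bp). Ethanol 6 and Control 6 were also the libraries with the widest median domain of their groups, and the part of library width in these values was not tested.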

How the results depend on the processing

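The 3632 broad domains became 5493 with a minimum of 3000 bp and 2347 when the rule was applied to the higher scoring 50% of peaks, the latter with fewer peaks by construction. The other settings gave 2599 (5000 bp) to 3810 (peaks up to 500 bp apart joined), and leaving out 1 library gave 3503 to 3746. No domain passed the adjusted limma threshold in any of the limma fits, which were those without centring, with quantile normalization, the replicate block, the higher scoring 50% of peaks, the same number of peaks, the pseudocount and 1 library left out (146 were at an unadjusted p under 0.05 after median centring). The 146 domains became 48 with a pseudocount of 100 bp in 77224 regions, and 115 to 224 when 1 library was left out, with the highest count without Control 5. The causes were not tested, and the shares over all regions in these and the other alternative fits are not given here. The median score percentile fell from 85.6 to 80.3 with the length-weighted score. The share of domains with another within reach was 66.7% at 50 kb and 90.4% at 500 kb against 75.8% at 100 kb, and it was 75.8% without chromosome 15 between 29 and 33 Mb, where no domain lay. The median log2 difference ran from 0.005 without Control 3 to 0.048 without Control 5. With the replicate number as a block, 175 domains were at an unadjusted p under 0.05 and none passed the adjusted threshold. Same-numbered libraries correlated at -0.072 to 0.214, with a mean of 0.048 against -0.0096 for other pairs. Of the 12 libraries, 5 correlated best with their own number in the other group. These values do not settle whether the numbers pair the samples. The main fit used no pairing, and the block fit is the alternative to it. The log2 difference was followed under the alternatives in 20 domains. These were chosen for an unadjusted limma p under 0.05 in the same data, so a kept direction was largely fixed in advance. Of their 358 values, 240 came from refits that left out 1 of the same 12 libraries. All 358 values kept the direction, and none of the 20 domains became significant. Since the depth of the libraries is unknown, no width could be set against it.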
